A study of Homo sapiens with 7 samples.

Results

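Rb binding was examined at 10 genes that encode the retinoblastoma pocket proteins and their partners in the DREAM and MuvB complexes, out of 19970 protein-coding genes on chromosomes 1 to 22 and X. The genes were RB1, RBL1 and RBL2 (pocket proteins), LIN9, LIN37, LIN52 and LIN54 (subunits of the MuvB core), MYBL1 and MYBL2 (MYB factors) and FOXM1. They were chosen by name, with earlier results of these data known. A gene was bound in a library when a peak overlapped the promoter window, which ran from 2000 bp before to 500 bp after any GENCODE transcript start site (TSS) of that gene. Peaks elsewhere within the gene were recorded separately.

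The cell line was ZR-75-1, derived from an oestrogen receptor-positive breast cancer, and was either parental or carried a CRISPR-Cas9 knockout of RB1 (RB1 KO) in a line grown from a single sorted cell. Cells received DMSO or 500 nM palbociclib, an inhibitor of the kinases CDK4 and CDK6, for 4 days. Rb was mapped by CUT&RUN, in which an antibody directs a nuclease that releases the DNA around the bound protein. The Rb antibody gave 4 parental libraries, 2 for each treatment, and 2 RB1 KO libraries, 1 for each treatment. A non-targeting IgG2a antibody gave 1 more library, from palbociclib-treated parental cells. The study describes its CUT&RUN replicates, unless otherwise indicated, as independent cultures, and the labels do not say more. Values from RB1 KO and IgG2a cells have no replicate.

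The 3 pocket proteins are Rb, p107 (encoded by RBL1) and p130 (encoded by RBL2), which bind E2F transcription factors and hold cell cycle genes silent until cyclin-dependent kinases phosphorylate them. In resting cells, p130 or p107 joins E2F4, DP1 and the MuvB core to form DREAM, which represses genes through E2F sites and through CHR elements that LIN54 contacts. When cells enter the cycle, MuvB exchanges the pocket protein for B-MYB (encoded by MYBL2) and later FOXM1, and then activates genes of G2 and mitosis.

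Palbociclib libraries held Rb peaks at the promoters of 9 of the 10 genes, and RBL2 was the exception. A promoter peak in both palbociclib libraries was seen for 34.9% of all protein-coding genes. In DMSO, RBL1 had a peak in both libraries (2.9% of all genes) and MYBL1 in exactly 1 (3.69% of all genes). The other 7 bound genes had a peak in both palbociclib libraries and in no DMSO library, a pattern shown by 28.4% of all genes. The same 9 genes were those with a peak in at least 1 parental library, against 43.7% of all genes. With each parental list limited to its best 816 peaks, the number in the shortest list, RBL1 and MYBL1 were the only 2 of the 10 genes bound in both palbociclib libraries, against 3.82% of all genes. None of the 10 promoters held a peak in an RB1 KO library, where 0.01% of all genes did, and none held a peak in the IgG2a library, where 1.95% did.

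**Figure D1:**
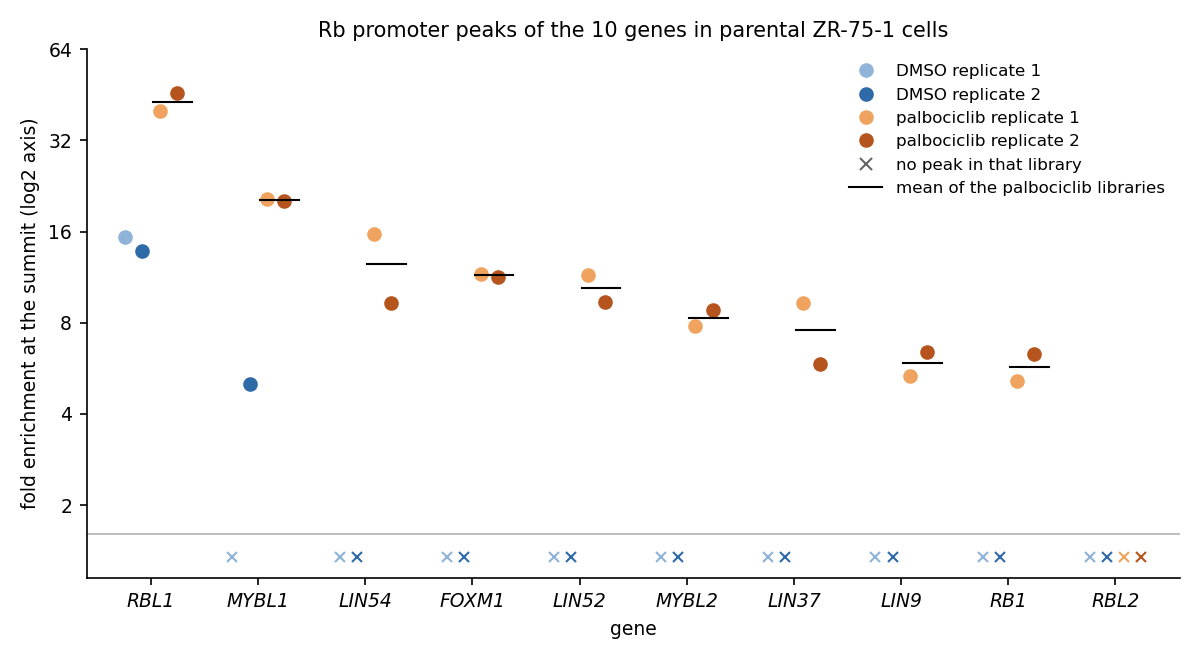
Fold enrichment at the summit (y axis, log2 scale) of the promoter peak of each of the 10 genes (x axis) in the 4 parental Rb libraries. Points are single libraries, lines are the means of the palbociclib libraries and crosses below the grey line mark libraries with no peak. RBL1 was at 39.9 and 46.0 with palbociclib and 15.4 and 13.8 with DMSO, and RBL2 had no peak in any library.

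Libraries differed widely in the number of peaks. On chromosomes 1 to 22 and X, the DMSO lists held 922 and 753 peaks, the palbociclib lists 8314 and 8171, the RB1 KO lists 4 and 5, and the IgG2a list 1724. The lists carry no read totals. A rough guide to depth is the lowest local background over the called peaks of each list, which also depends on the control. It was 0.571 and 0.465 fragments in the DMSO lists. In the palbociclib lists it was 0.516 and 0.549 fragments. It was 0.654 and 0.446 in the RB1 KO lists (DMSO and palbociclib) and 0.451 in the IgG2a list. These values overlapped between the parental treatments, and depth itself was not measured.

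RBL1, which encodes p107, had the highest values of the 10 genes. Fold enrichment is the authors' measure of peak height, the fragments over the summit (pileup) divided by those expected locally (background), with 1 added to both. The added 1 lowers the ratio most where the background is low, as at LIN54 and LIN52. At RBL1 it was 15.4 and 13.8 in the DMSO libraries and 39.9 and 46.0 in the palbociclib libraries. The groups did not overlap, and their means were 14.6 ± 1.1 (SD, n = 2) and 43.0 ± 4.31 (SD, n = 2). The pileup was recovered from the deposited values as 40 and 23 (DMSO) and 97 and 117 (palbociclib). The peak was 735 and 496 bp wide without the drug and 891 and 1092 bp wide with it, a 1.61-fold difference in mean width. With palbociclib it ranked 85th of 7290 and 49th of 7180 promoter peaks. With DMSO it ranked 19th of 833 and 25th of 693, so it stood near the top of all 4 lists.

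RBL1 was the only one of the 10 genes with a value in all 4 parental libraries, and therefore the only one that could be tested. Its fold enrichment was higher with palbociclib by 1.56 ± 0.229 (SE) on the log2 scale, a 2.95-fold difference (limma, adjusted p = 1.55e-05 over 476 regions called in all 4 libraries). This call was shared by 99.8% of the regions tested, whose median difference was 1.90 log2, and only 17.2% of them had a smaller difference than RBL1. After centring each library on its median, the RBL1 difference was -0.37 log2 (adjusted p = 0.441).

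The RBL1 peak spanned chr20:37095420-37096511 in hg38 and its summits lay within exon 1, outside annotated UTRs. Summits were 180 and 177 bp downstream of the canonical TSS with palbociclib and 181 and 93 bp downstream with DMSO. The lncRNA ENSG00000269846 shared the same region. Within 500 bp of the TSS, 5 matches to an E2F motif were found, counting TTTGGCGC, TTTCCCGC, TTTCGCGC and TTTGCCGC on both strands. Other forms of the E2F site were not searched, here or below. At least 1 match was present in 10.5% of all protein-coding genes, and 5 or more in only 2 genes, RBL1 included (0.01%). This count was looked at after the matches had been seen. The matches lay on either side of the palbociclib summit, the nearest 183 bp downstream and 191 bp upstream of it, and none was within 100 bp.

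RB1, which encodes Rb itself, had one of the weakest promoter peaks. Its fold enrichment was 5.13 and 6.30 with palbociclib (mean 5.71 ± 0.829, SD, n = 2), and neither DMSO list held a peak there. It was higher than 25.3% and 41.4% of promoter peaks, below the list medians of 7.25 and 7.17. The peak was nevertheless 955 and 727 bp wide, wider than 88.8% and 77% of promoter peaks. It covered chr13:48303330-48304284, a region shared with the divergent lncRNA RB1-DT, and its summits lay 349 and 197 bp downstream of the canonical TSS, in intron 1 and exon 1.

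The low ratio at RB1 went with a high local background. Pileup was 24 and 25 fragments, above 67.6% and 68.2% of promoter peaks, over a background of 3.88 and 3.13 fragments, above 96.8% and 91.3% of them. By the definition of the ratio, a higher background lowers it at a given pileup. Peaks were called against matched IgG controls, from which the caller takes this background. Why the background was high at RB1 was not tested. No IgG2a peak was called there, but the control for that list is not given, so a low IgG signal is not shown.

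Another RB1 peak lay within the gene span, 263 and 219 bp wide, with fold enrichment of 7.30 and 6.85 in the palbociclib libraries. RB1 was the only one of the 10 genes with such a peak in both palbociclib libraries, against 3% of all genes. This peak (chr13:48532816-48533078) lay downstream of the end of the canonical RB1 transcript and at the promoter of RCBTB2, so it is placed in RB1 only by a longer annotated transcript.

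RBL2, which encodes p130, had no peak in its promoter or anywhere in its 57.7-kb gene in any of the 7 lists. The nearest parental peak was 23504 bp from its closest TSS, at the promoter of AKTIP, with fold enrichment of 8.58 in palbociclib replicate 2 alone. A missing peak means that enrichment did not pass the peak caller's threshold, so absence of Rb cannot be told apart from a low level. Within 500 bp of its canonical TSS no E2F match was found, and 1 CHR match (TTTGAA or TTCGAA), 6 matches to the SP/KLF motif GGGCGG and 1 to the NRF1 consensus were.

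The sequences just before the start sites of RBL1 and RB1 both carry E2F matches, and are shown because pocket proteins reach DNA through E2F. Each run is the last 100 bases before the most upstream annotated TSS, on the gene's strand, in hg38, with E2F and SP/KLF matches in capitals (RBL1 chr20:37095998-37096097, minus strand; RB1 chr13:48303644-48303743, plus strand).
RBL1: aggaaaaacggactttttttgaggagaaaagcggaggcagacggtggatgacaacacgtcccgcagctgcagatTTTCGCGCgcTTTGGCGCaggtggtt
RB1: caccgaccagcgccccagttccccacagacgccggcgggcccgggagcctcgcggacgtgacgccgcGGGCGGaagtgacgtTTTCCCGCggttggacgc
RBL1 has 2 E2F matches in this stretch and RB1 has 1. An E2F match was present in the same 100-base window of 1.34% of all protein-coding genes. The RB1 match lay 295 bp upstream of its mean palbociclib summit.

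All 4 LIN genes, which with RBBP4 encode the MuvB core, were bound in both palbociclib libraries and in neither DMSO library. This pattern was shown by 28.4% of all genes. LIN54, the subunit that binds CHR elements, had fold enrichment of 15.7 and 9.30. LIN52, which docks the pocket protein when phosphorylated, had 11.5 and 9.40. LIN37, which is needed for repression by DREAM, had 9.31 and 5.85. LIN9, which with LIN52 contacts B-MYB, had 5.34 and 6.39.

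Replicates spread more at LIN54 and LIN37 than at the other genes. The higher value was 1.69 times the lower at LIN54 and 1.59 times at LIN37, against 1.01 to 1.23 times at the other 7 bound genes. The median over 6046 promoter regions called in both palbociclib libraries was 1.21, and 95% of those regions were below 1.79. The LIN37 peak was the narrowest, at 360 and 156 bp, and in replicate 2 only 1.06% of promoter peaks were narrower. LIN52, by contrast, had a wide peak of 1029 and 972 bp, wider than 91.9% and 90.4% of promoter peaks, over only 19 and 18 fragments at the summit.

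LIN9 had the highest local background of the 10 genes. Its pileup of 38 and 30 fragments was above that of 85.8% and 76.7% of promoter peaks, and its background of 6.3 and 3.85 fragments was above that of 99.7% and 95.9%. By mean fold enrichment LIN9 was in place 8 of the 9 bound genes, and by mean pileup it was in place 3. FOXM1, with a nearly equal pileup of 32 and 34 fragments over a background of 1.85 and 2.08, had a fold enrichment of 11.6 and 11.3. No IgG2a peak was called at LIN9, which does not show a low IgG signal, because the background is itself taken from the IgG control.

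**Figure D2:**
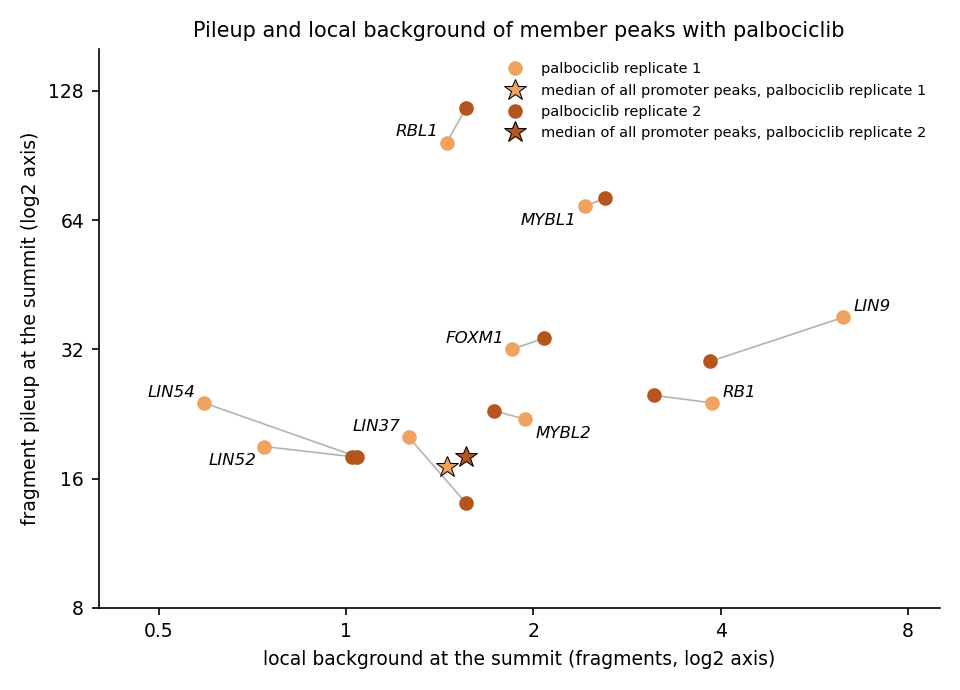
Fragment pileup (y axis) against local background (x axis), both in fragments at the summit and on log2 scales, for the 9 bound genes in the 2 palbociclib libraries. Points of 1 gene are joined, and stars mark the medians of all promoter peaks, which were 17 and 18 fragments of pileup over a background of 1.45 and 1.56. LIN9 and RB1 lie to the right of the other genes.

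The LIN54 peak lay away from the canonical start site. It covered chr4:83012369-83013232, with summits 2266 and 2116 bp upstream of the canonical TSS but 163 and 13 bp upstream of another annotated TSS of the same gene. The peaks of LIN9 (chr1:226308811-226309521), LIN37 (chr19:35748366-35748725) and LIN52 (chr14:74084313-74085382) overlapped their canonical TSS or, for LIN37 in replicate 2, ended just before it. The LIN9 summits were 116 and 181 bp upstream of that TSS and within a UTR of another LIN9 transcript. The LIN37 summits were 86 and 126 bp upstream, under the lncRNA ENSG00000267439 and within the gene ENSG00000188223. That signal cannot be given to LIN37 alone. The LIN52 summits were 31 bp downstream, in exon 1, and 133 bp upstream. The LIN52 region also covered a start site of ALDH6A1, a mitochondrial dehydrogenase gene transcribed from the other strand, so its peak cannot be given to 1 gene.

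LIN37 lies in a dense stretch of chromosome 19 with stronger Rb peaks at its neighbours. A region at PSENEN and U2AF1L4, 2710 bp from the nearest LIN37 TSS, was at a fold enrichment of 4.17 and 5.72 (DMSO) and 22.5 and 24.6 (palbociclib). The IGFLR1 region, 7113 bp away, had 27.7 and 26.9 with palbociclib. The region at HSPB6 and PROSER3, 3932 bp away, had 8.12 and 5.55. Only the last of these was close to the LIN37 values.

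The MuvB genes carry E2F or CHR matches near the start site, shown here because these are the elements through which DREAM is known to bind. LIN52 is printed as the last 100 bases before its most upstream TSS (chr14:74084856-74084955, plus strand) with the E2F match in capitals. The other runs are 30-base sites on the gene's strand with the named match in capitals: LIN9 E2F (chr1:226309061-226309090, minus), LIN9 CHR (chr1:226309150-226309179, minus), LIN37 CHR (chr19:35748620-35748649, plus) and LIN54 CHR (chr4:83012879-83012908, minus).
LIN52: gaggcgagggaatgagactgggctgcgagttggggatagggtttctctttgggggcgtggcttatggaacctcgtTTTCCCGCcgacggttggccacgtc
LIN9 E2F: cacccccccctTTTCCCGCctgctgcttgc
LIN9 CHR: cggcgggcagccTTTGAAaaagcggcgcgg
LIN37 CHR: acgaagctcatcTTTGAActgtccccgcct
LIN54 CHR: tgggcgcgtgatTTTGAAcaaaccctggtc
The LIN52 match lay 29 bp from the mean palbociclib summit, but the summits of the 2 libraries were 164 bp apart there. At LIN54 they were 150 bp apart. The LIN9 E2F match was 237 bp downstream of its summit, and the printed CHR matches were 148 bp (LIN9), 164 bp (LIN37) and 121 bp (LIN54) downstream. A CHR match is common: 37.2% of all protein-coding genes have 1 within 500 bp of the canonical TSS, as do 6 of the 10 genes (FOXM1, LIN37, LIN54, LIN9, MYBL1 and RBL2). The printed LIN54 match is not among those counted. It lay at -2070 bp from the canonical TSS and at -6 bp from another LIN54 TSS.

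The MYB factor genes MYBL1 and MYBL2, which encode A-MYB and B-MYB, had values that did not overlap. MYBL1 had no peak in DMSO replicate 1, 5.01 in DMSO replicate 2, and 20.5 and 20.2 with palbociclib (mean 20.4 ± 0.147, SD, n = 2). The palbociclib values were 4.06 times the single DMSO value, which has no replicate and was not tested. MYBL1 was the second highest of the 10 genes, above 92.9% of promoter peaks in both palbociclib lists. Its peak was also the widest, at 1661 and 1120 bp against 344 bp in the DMSO library. The palbociclib summits were 175 and 145 bp upstream of the canonical TSS, and the DMSO summit 163 bp upstream.

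MYBL2 had fold enrichment of 7.83 and 8.80 with palbociclib (mean 8.31 ± 0.685, SD, n = 2) and no DMSO peak. The peak (chr20:43666777-43667580) was 804 and 773 bp wide, with summits 151 bp upstream and 3 bp downstream of the canonical TSS. No exact match to the E2F, CHR or CCAAT sequences searched lay in the region, whereas 10 SP/KLF matches did. An E2F site of another form would have been missed. The last 100 bases before its most upstream TSS (chr20:43666919-43667018, plus strand) are printed to show the 6 matches to GGGCGG there, all read as CCGCCC on this strand and some sharing bases, in capitals.
MYBL2: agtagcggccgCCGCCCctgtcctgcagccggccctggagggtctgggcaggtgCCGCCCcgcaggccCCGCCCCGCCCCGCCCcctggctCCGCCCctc
An SP/KLF match was present in this window in 37.6% of all protein-coding genes, and 5 or more in 1.11%. An additional non-promoter peak lay 9138 bp from the nearest MYBL2 TSS, with fold enrichment of 5.90 and 6.65 with palbociclib.

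FOXM1, a forkhead factor that drives mitotic genes, had fold enrichment of 11.6 and 11.3 with palbociclib (mean 11.5 ± 0.172, SD, n = 2) and no DMSO peak. Peaks were 712 and 959 bp wide, and the region (chr12:2876523-2877657) also covered start sites of RHNO1 and TULP3 on the other strand. The summits were 92 and 187 bp downstream of the canonical FOXM1 TSS, in the UTR of exon 1 and within RHNO1, so the signal cannot be given to FOXM1 alone. A CCAAT box and a CHR match on the opposite strand lie side by side just downstream of the TSS, in the 30-base site at chr12:2877137-2877166 (minus strand) with both in capitals.
FOXM1: gccggcgCCAATTTCAAAcagcggaacaaa
The CHR match was 117 bp upstream of the mean palbociclib summit.

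**Figure D3:**
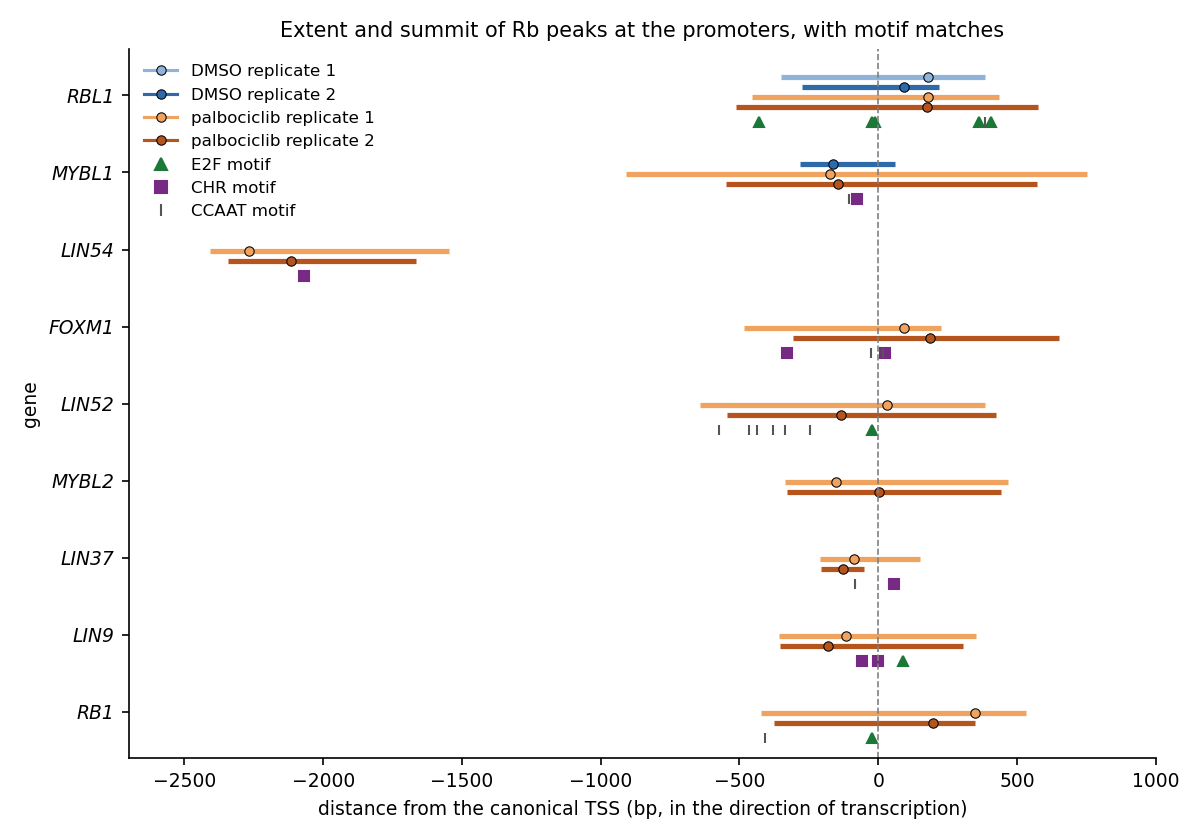
Extent (bars) and summit (circles) of the promoter peaks of the 9 bound genes in the 4 parental libraries, in bp from the canonical TSS in the direction of transcription, with matches to E2F, CHR and CCAAT motifs below each gene. Palbociclib summits lie between 181 bp upstream and 349 bp downstream of the dashed line for 8 genes, and 2266 and 2116 bp upstream for LIN54.

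In order of mean palbociclib fold enrichment, the genes ran RBL1, MYBL1, LIN54, FOXM1, LIN52, MYBL2, LIN37, LIN9 and RB1. The ranges of the 2 libraries did not overlap between RBL1 and MYBL1, between MYBL1 and LIN54, or between LIN52 and MYBL2. All other neighbours in this order overlapped. By mean pileup RBL1 and MYBL1 kept the first places, at 107 ± 14.1 and 70.5 ± 2.12 fragments (SD, n = 2), and the order below them changed. All 9 genes were above the median pileup of their list in replicate 1, whereas in replicate 2 LIN37 was below it, at 14 fragments, and LIN52 and LIN54 were at it, at 18.

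**Figure D4:**
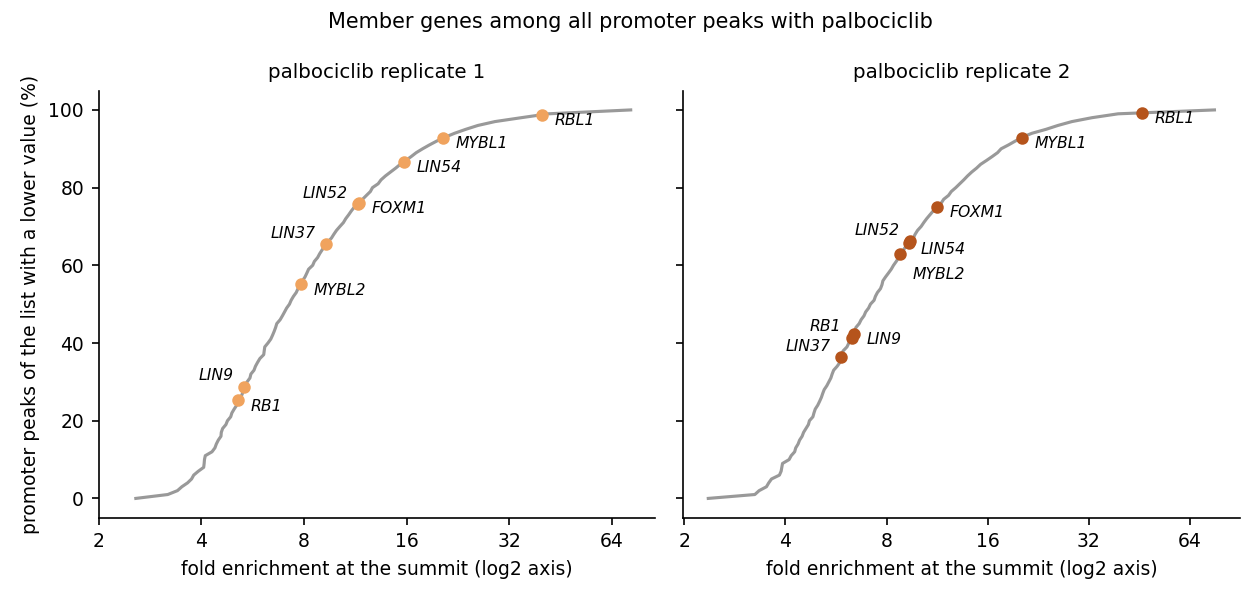
Share of promoter peaks with a lower value (y axis, percent) against fold enrichment at the summit (x axis, log2 scale) in each palbociclib library. The grey line is all promoter peaks of the list, 7290 in replicate 1 and 7180 in replicate 2, and points are the 9 bound genes. Genes run from RB1 at 25.3% (replicate 1) to RBL1 at 98.8% and 99.3%.

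What the bound promoters share beyond the selection by name is limited. Within 100 bp of the mean palbociclib summit, an SP/KLF match (GGGCGG) was present at 9 of 9 regions, against 70.6% of the 6046 promoter regions. An E2F match was present at 1 of 9 (LIN52) against 5.79%, a CHR match at 2 of 9 (LIN9 and MYBL1) against 4.48%, and CCAAT at 2 of 9 (LIN37 and MYBL1) against 25.5%. The CRE TGACGTCA, the ETS motif CCGGAAGT and the NRF1 consensus were in none of the 9 windows, against 1.17%, 3.29% and 7.41%. The 2 palbociclib summits of a gene were 3 to 164 bp apart. A window around their mean need not hold the same matches as a window around either summit. Forms of the E2F site other than the listed sequences were not searched. A match is a description of the letters and not of binding.

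The region whose 4 parental values were nearest to those of RBL1 was the TIMELESS promoter (chr12:56448801-56449516), among 449 non-member promoter regions called in all 4 libraries. TIMELESS, which protects replication forks, had 16.6 and 14.3 in the DMSO libraries and 34.6 and 38.2 in the palbociclib libraries, at a Euclidean distance of 0.36 in log2 units over 4 libraries.

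Binding was also counted over genes that work with the 10, in lists written with earlier results of these data known. Of 12 DREAM partners and regulators, 8 were bound in both palbociclib libraries and none in both DMSO libraries. The shares of all genes were 34.9% and 2.9%. MYB had 12.2 and 15.4, the E2F partner TFDP1 14.0 and 13.6, and the MuvB histone-binding subunit RBBP4 12.9 and 12.4. CDK4 had 10.7 and 9.01, and the LIN52 kinase DYRK1A 12.7 and 4.91. CDK2 had 5.38 and 7.49, TFDP2 4.08 and 7.62, and the cyclin gene CCND1 3.42 and 3.24. E2F4, the main E2F of DREAM, had a peak in palbociclib replicate 1 alone (5.90), and CDK6, E2F5 and LATS2 had none.

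Target genes of the complexes were counted by cell cycle phase, in lists also written with earlier results known. Of all genes, 34.9% had a peak in both palbociclib libraries and 2.9% in both DMSO libraries. Of 20 G1/S genes known as E2F targets, 20 were bound in both palbociclib libraries and 10 in both DMSO libraries, with a median palbociclib fold enrichment of 18.5. They ranged from a mean of 6.28 at E2F2 to 71.0 at CDC6, the replication licensing factor. Of 20 G2/M genes known as targets of MuvB, B-MYB and FOXM1, 13 had a peak in both palbociclib libraries and 1 (NUSAP1) in both DMSO libraries, with a median of 8.36. They ranged from 4.15 at the cyclin gene CCNB2 to 25.1 at NUSAP1. The IgG2a list held a peak at 1 gene of the G2/M list (CCNB1), 1 of the G1/S list (TYMS) and none of the 12 partners, and both genes are named for that reason. At CCNB1, IgG2a was at 5.16 against 5.87 and 5.33 for Rb with palbociclib, and at TYMS it was at 4.85 against 16.3 and 12.1. The control behind the IgG2a ratios is not given, so they may not share a scale with the Rb ratios. The 9 bound genes of the pocket protein and MuvB group had a median of 10.5, and the bound genes among all protein-coding genes had a median of 8.36. The difference between lists was not tested.

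**Figure D5:**
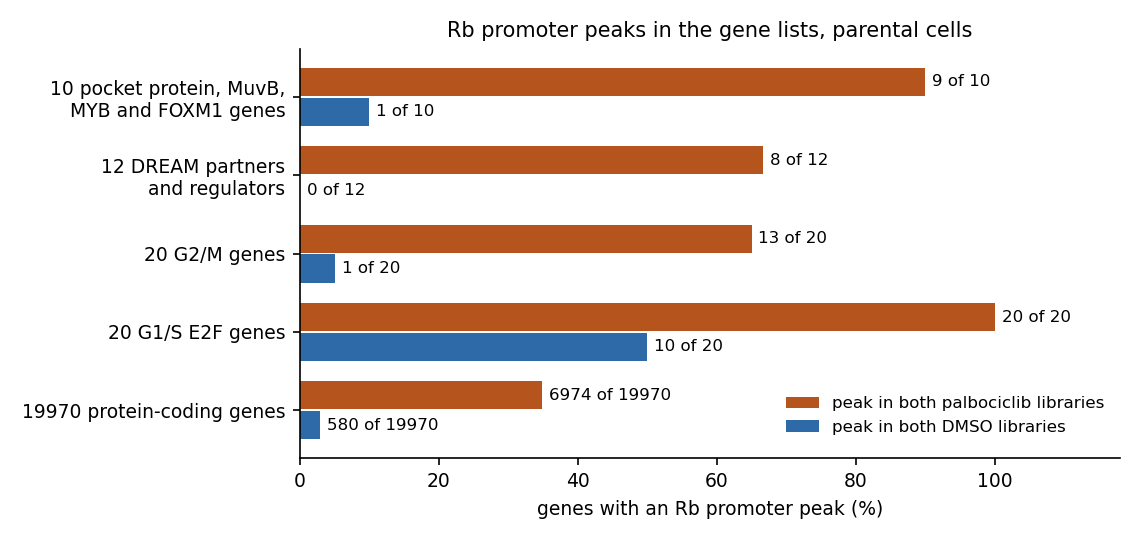
Share of genes (x axis, percent) with an Rb promoter peak in both palbociclib libraries and in both DMSO libraries, for the 10 genes, 3 related lists and all protein-coding genes, with counts beside the bars. The 10 genes stood at 9 of 10 with palbociclib and 1 of 10 with DMSO, the G1/S list at 20 of 20 and 10 of 20, and all genes at 34.9% and 2.9%.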

How the data were processed

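CUT&RUN peak lists from 7 libraries were used, grouped by sample titles. The study's methods describe adapter trimming (BBDuk) and alignment to hg38 by Bowtie2 2.3.4.1, after which reads in blacklisted regions or the mitochondrial genome were dropped and duplicates were left in. Peak calling by MACS2 2.2.7.1 was done library by library (paired-end, IgG control, q-value threshold 0.05). The control for the IgG2a list is not given in the sources used here. Each deposited list gives a score, the fold enrichment ratio at the summit, −log10 p and −log10 q as the authors' caller wrote them. Replicates were not pooled. Read-level files were not used here.

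Peaks were annotated with GENCODE 44. Pileup and background were recovered as the whole-number pileup that solves the deposited ratio (pileup plus 1 over background plus 1) and −log10 p (largest misfit 0.00551). Duplicates were kept after alignment, and how the peak caller treated them is not stated. Pileup therefore may not count independent molecules. Regions were joined at an overlap of 1 bp. Log2 fold enrichment of regions called in all 4 parental libraries was tested with limma 3.58.1 (R 4.3.3, two-sided, Benjamini-Hochberg adjusted p under 0.05, no pseudocount), after a test on simulated data. An exact permutation test of 2 libraries against 2 cannot go below p = 0.333 and was not used for single genes. Replicate numbers were not taken as pairs. Motifs were searched on both strands of hg38 around the mean palbociclib summit.

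The members and lists were chosen with earlier results of these data known. Named were all 10 genes, genes sharing their promoter regions, gene-body peaks in both palbociclib libraries, the most similar promoter region, every gene of the list of 12, and the extremes of longer lists. Neighbouring peaks within 10 kb, the printed stretches and the order by pileup were chosen after values were seen. Alternatives covered the promoter window, TSS set, peak threshold, list length, scaling, overlap, quantity, uncalled values, single libraries and the motif window.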

Additional observations from a re-analysis of the deposited data

How the results depend on the processing

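The lists hold only peaks that passed the caller's threshold, so a gene without a peak has no value. Only RBL1 could be tested, and 2 libraries per treatment limit the precision. The count of 9 of the 10 genes bound in both palbociclib libraries was the same with other promoter windows, TSS sets, a stricter threshold and single libraries. With each parental list limited to its best 816 peaks it was 2 (RBL1 and MYBL1), against 3.82% of all genes. Without DMSO replicate 1, which held no MYBL1 peak, 2 genes (RBL1 and MYBL1) were bound with DMSO, so the count of 1 ranged from 1 to 2 over the libraries left out.

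Of the 476 regions tested with limma, 475 were higher with palbociclib and 0 lower, with 475 at an unadjusted p under 0.05. With each library centred on its median, 0 were higher and 2 lower (80 at an unadjusted p under 0.05), none of the 10 genes was called (0) and the RBL1 difference was -0.37 log2. The higher count was 271 with a −log10 q of at least 5 and 52 with 50% reciprocal overlap, where fewer regions were tested (272 and 53). With pileup in place of fold enrichment 1 region was lower. With uncalled DMSO values set to the lowest of the list, 6205 of 6644 regions and 9 of 9 genes were called higher, a direction that this setting itself favours. Without single libraries, 465 to 473 regions were higher and 0 to 1 lower, and the RBL1 difference was 1.46 to 1.66 log2 (adjusted p from 0.000397 to 0.00753). These fits leave 1 treatment with a single library, which is assumed to vary like the other treatment, whose 2 libraries alone give the spread. With the replicate block 475 were higher, and the RBL1 difference was 1.56 log2 (adjusted p = 4.63e-05). Same-numbered libraries were hardly correlated in their deviations from the group means (0.0748 over 476 regions), so the numbers were not taken to pair libraries.

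Motif counts depended on the window. Within 150 bp of the summit a CHR match was at 4 of 9 genes (6.68% of the 6046 promoter regions) and an NRF1 match at 1 (10.5%). An SP/KLF match was at 9 of 9 in that window, against 84.3% of the promoter regions. From 250 bp before the TSS to the TSS, E2F matches were at 3 of 10 genes (3.77% of all 19970 genes), CCAAT at 4 (34.3%) and NRF1 at 2 (7.58%). There SP/KLF matches were at 7 of the 10 genes, against 59% of all genes.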
